A study of Sus scrofa with 12 samples.

Results

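The genes described here encode myosin light chains and myosin binding proteins, the small subunits and accessory proteins of the muscle thick filament. Symbols were fixed for 10 genes, namely MYL1, MYL2, MYL3, MYL4, MYLPF, MYL6, MYL6B, MYBPC1, MYBPC2 and MYBPH. Rows were chosen by pig gene symbol, and the ortholog of human MYL6B by its identifier, ENSSSCG00000023287. This gave 8 genes with 1 identifier each, of 22861 genes in the table. MYL2 and MYL6 were matched to no identifier and were not analysed here. The measurements are RNA-seq levels in Biceps femoris, a hindlimb muscle that forms part of the ham, taken from male piglets at postnatal day 1. The first group were 5 Iberian x Duroc crossbred piglets (IBxDU), born to pure Iberian sows mated to Duroc boars. The second were 6 purebred Iberian piglets (IB), born to pure Iberian sows mated to Iberian boars. The groups therefore share the breed of the dam and differ in that of the sire. The labels list 12 animals, and IBxDU-425 had no values and was not analysed here. The study discarded an IBxDU pig whose sample lay apart in its clustering, so the IBxDU spread given here follows that removal. By the study's methods there were fewer IB litters than IB animals, so littermates are among them. Littermates may be among the IBxDU animals as well. Which animals are littermates is not given, and every p-value counts the animals as independent.

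In striated muscle, each myosin heavy chain carries an essential and a regulatory light chain on its neck, the lever that swings during contraction. Fast fibres use the essential chain MYL1 and the regulatory chain MYLPF, while slow fibres use MYL3 and MYL2, which the heart ventricle also uses. MYL4 belongs to embryonic muscle and the heart atrium, and MYL6 is the essential chain of non-muscle and smooth muscle myosin. MYL6B is found with non-muscle myosin and also in slow skeletal muscle. Myosin binding protein C sits along the thick filament and tunes the reach of the myosin heads, with a slow (MYBPC1) and a fast (MYBPC2) form, and MYBPH is a shorter relative of both. Muscle of newborn mammals is still exchanging developmental for adult isoforms.

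The values are RPKM, read numbers scaled by exon length and by the mapped reads of the library. They can be set side by side between genes, while comparisons between animals depend on the scaling, as given below. Whole reads could be recovered from the steps between values, and the exon reads per animal ranged between 16931429 and 30591354, with a median of 19226288 in IBxDU and 22228764 in IB. The skeletal muscle markers that were matched (ACTA1, DES, TNNC2 and PYGM, 4 of 10) summed to between 26982 and 60028 RPKM in IBxDU and between 37678 and 45743 RPKM in IB. Of the heart markers, 5 of 8 were matched, and NPPB, RYR2 and MYBPC3 stayed under 1 RPKM in every animal. TNNT2, the troponin T of heart and developing muscle, had 7.98 ± 2.52 RPKM in IBxDU and 12.5 ± 4.03 RPKM in IB (log2 fold change -0.64, unadjusted p = 0.0218, adjusted p = 0.570 in limma). MYH6 stood at 312 ± 145 RPKM in IBxDU and 365 ± 268 RPKM in IB, and it is nearly identical in sequence to the slow heavy chain MYH7. MYH7 itself was matched to no identifier, so that MYH7 reads may have been counted for MYH6. How reads with several matches were counted is not given in the sources used here. Over all 11875 genes tested with limma on log2(RPKM + 0.1), the median log2 fold change (IBxDU minus IB) was 0.13, and 66.9% of genes had a fold change above 0. That shift was 0.02 after upper quartile scaling and 0.01 after median-of-ratios scaling.

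No member passed the test of a difference between the genetic types. The count was 0 of 8 at a Benjamini-Hochberg adjusted p under 0.05 in limma, where 0.0168% of all tested genes passed, and 0 of 8 at an unadjusted p under 0.05, where 8.03% did (6% higher and 2.02% lower in IBxDU). With voom on the recovered reads 0 of 8 passed as well. The members were higher in IBxDU for 3 genes and lower for 5, with a median log2 fold change of -0.10 beside 0.13 for all tested genes. The ranges of the groups overlapped for each member, while they did not overlap for 1.04% of all tested genes. Together the 8 genes made up 5.93 ± 1.11% of the summed RPKM of an animal in IBxDU and 5.74 ± 1.14% in IB (SD, n = 5 and n = 6). On the log2 scale the SD between animals of one genetic type exceeded the difference between the types for each member except the MYL6B ortholog, with an SD of 2.77 and a log2 fold change of -2.78.

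**Figure D1:**
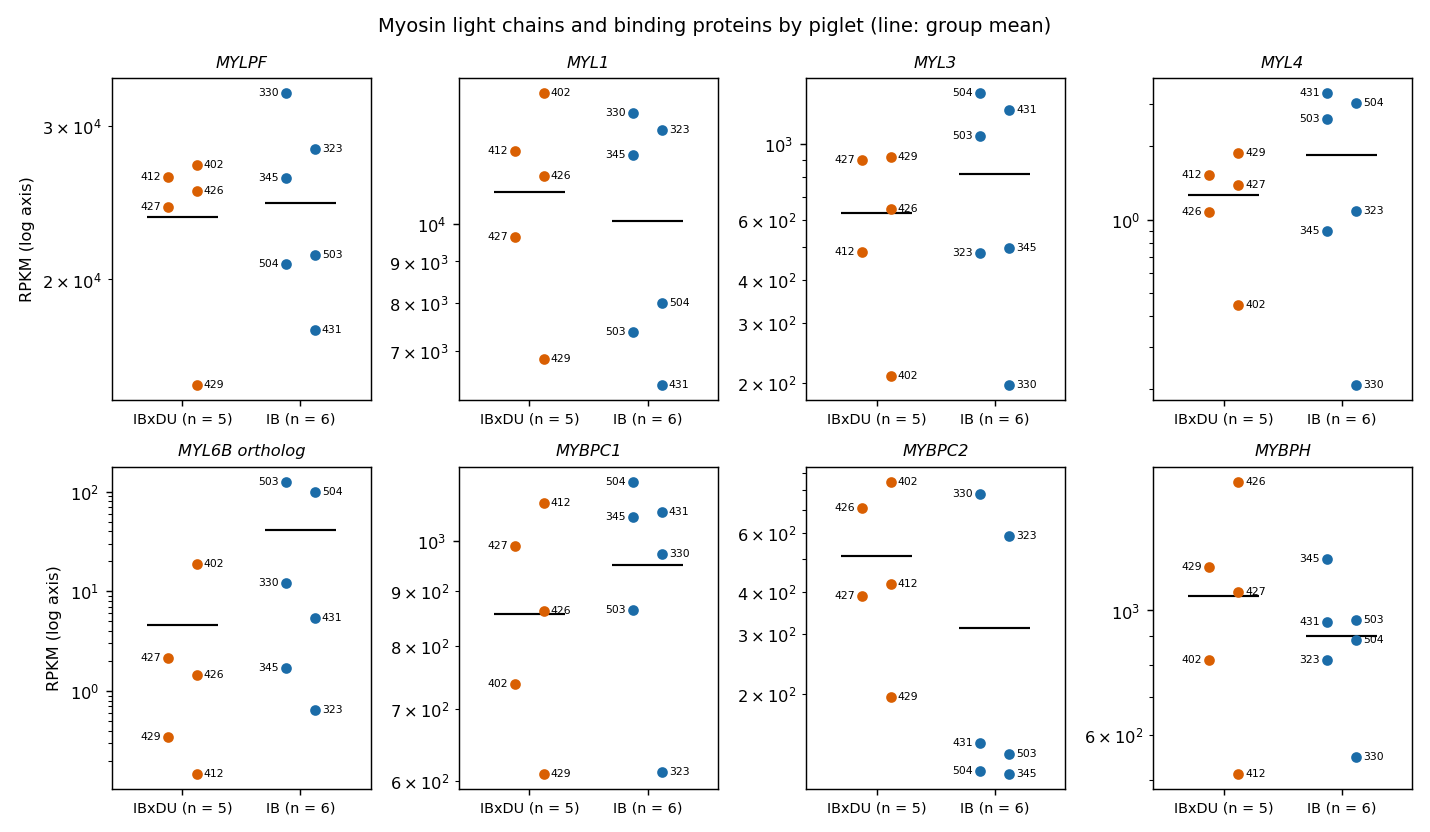
RPKM (log axis) of each member in every piglet, with IBxDU (n = 5, orange) left of IB (n = 6, blue), animal numbers beside the points and a line at each group mean. The groups overlap in all 8 panels, and the MYL6B ortholog spans 0.146 to 126 RPKM.

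The regulatory light chain of fast fibres, MYLPF (ENSSSCG00000007799), was the most abundant member. It had 27072, 26218, 25250, 24234 and 15109 RPKM in IBxDU, against 28224, 32748, 26176, 17517, 21326 and 20828 RPKM in IB. It took between rank 3 and rank 6 among all genes of each animal and rested on 210533 to 585273 reads. IBxDU-429 was the lowest animal and IB-330 the highest. The means were 23577 ± 4851 RPKM in IBxDU and 24470 ± 5604 RPKM in IB, and the log2 fold change was -0.05 (SE 0.20, 95% confidence interval -0.48 to 0.38, limma adjusted p = 0.945, two-sided exact permutation p = 0.814). Its direction turned to 0.10 without IBxDU-429 and to 0.038 without IB-330.

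MYL1 (ENSSSCG00000016157), the essential light chain of fast fibres, followed in abundance. The IBxDU animals had 14476, 12296, 11448, 9656 and 6840 RPKM, against 13036, 13683, 12138, 6343, 7382 and 8007 RPKM in IB. IBxDU-402 was highest, and the lowest values were those of IB-431 and IBxDU-429, the same animals that were lowest for MYLPF. Means were 10943 ± 2875 RPKM in IBxDU and 10098 ± 3209 RPKM in IB, with a log2 fold change of 0.14 (SE 0.25, 95% confidence interval -0.39 to 0.66, limma adjusted p = 0.879, exact permutation p = 0.615). Without IB-431 the fold change was 0.01, and without IBxDU-429 it was 0.29. There were 2.19 ± 0.228 MYLPF transcripts per length for each MYL1 transcript in IBxDU and 2.49 ± 0.307 in IB. This ratio was between 1.87 and 2.51 in IBxDU and between 2.16 and 2.89 in IB, so the groups overlapped.

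The slow essential light chain MYL3 (ENSSSCG00000011325) varied far more between animals than the fast chains. It stood at 210, 485, 645, 899 and 916 RPKM in IBxDU and at 483, 197, 496, 1265, 1057 and 1413 RPKM in IB. The lowest animal of each genetic type, IBxDU-402 and IB-330, was among the animals with the highest MYL1. Within the genetic types, the spread of MYL3 on the log2 scale was larger than that of 95.2% of all tested genes, whereas that of MYLPF was larger than only 31.1% and that of MYL1 than 54.1%. The means were 631 ± 297 RPKM in IBxDU and 818 ± 493 RPKM in IB, and the log2 fold change was -0.26 (SE 0.50, 95% confidence interval -1.33 to 0.81, limma adjusted p = 0.888, exact permutation p = 0.641). Leaving out IB-330 gave -0.61 and leaving out IBxDU-402 gave 0.09, so its direction rested on single animals.

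Expressed as a share of the essential chains within an animal, MYL3 made up 1.43, 3.79, 5.34, 8.52 and 11.8% of MYL1 plus MYL3 in IBxDU, against 3.57, 1.42, 3.93, 16.6, 12.5 and 15.0% in IB. The mean share was 6.18 ± 4.07% in IBxDU and 8.84 ± 6.62% in IB. The 3 highest shares were those of IB-431, IB-504 and IB-503, but the single lowest share was in IB-330, so that IB held both ends of the range. In a bulk sample, fewer slow fibres and less slow-type RNA per fibre cannot be told apart.

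MYL4 (ENSSSCG00000017307), the embryonic and atrial essential chain, was close to the lower limit of measurement. It had 0.443, 1.52, 1.08, 1.39 and 1.87 RPKM in IBxDU, against 1.08, 0.207, 0.900, 3.31, 2.60 and 3.01 RPKM in IB, which rested on 3 to 52 reads per animal. Both lowest animals, IB-330 and IBxDU-402, were also lowest for MYL3. The log2 fold change was -0.24 (SE 0.57, 95% confidence interval -1.47 to 0.98, limma adjusted p = 0.910, exact permutation p = 0.723), with -0.69 without IB-330, 0.06 without IBxDU-402 and 0.0006 without IB-431. MYL4 and MYL3 are close paralogs. MYL4 reads amounted to between 0.147 and 0.296% of MYL3 reads in IBxDU animals and between 0.0996 and 0.248% in IB animals, and whether some of them came from MYL3 transcripts was not tested.

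The ortholog of MYL6B (ENSSSCG00000023287) had the widest spread of the members. It stood at 19.0, 0.146, 1.45, 2.13 and 0.344 RPKM in IBxDU, against 0.643, 12.3, 1.68, 5.36, 126 and 99.6 RPKM in IB. The reads behind these values were 203, 2, 28, 26 and 4 in IBxDU and 9, 168, 23, 78, 2391 and 1095 in IB. MYL6 was matched to no identifier, and whether some of these reads came from MYL6 transcripts was not tested. IB-503 and IB-504 stood far above every other animal, IBxDU-402 came next, and the other 4 IB animals lay within the range of IBxDU. The highest animal exceeded the lowest 865-fold, and the spread within the genetic types was larger than for 99.96% of all tested genes. This gene is one of those that the study called on these animals, so its difference here is not an independent result. The study's call used an edgeR-based test on exon reads, with thresholds on the unadjusted p and the fold change. It is not like the adjusted limma threshold used here.

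Mean levels of the MYL6B ortholog were 4.62 ± 8.10 RPKM in IBxDU and 41.0 ± 56.5 RPKM in IB, which is an SD above the mean in both groups. The log2 fold change was -2.78 (SE 1.36, 95% confidence interval -5.70 to 0.14), with an unadjusted p of 0.0607 and an adjusted p of 0.612 in limma and an exact permutation p of 0.134. Of the IBxDU animals, 4 of 5 lay below the IB mean of log2 values. The unadjusted p fell under 0.05 when single animals were left out in 3 of 11 cases, the smallest being 0.0129 in limma without IBxDU-402, where the log2 fold change was -3.70. Without IB-503 it was -2.05. The adjusted p stayed at or above 0.422 in each of these 11 fits.

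**Figure D2:**
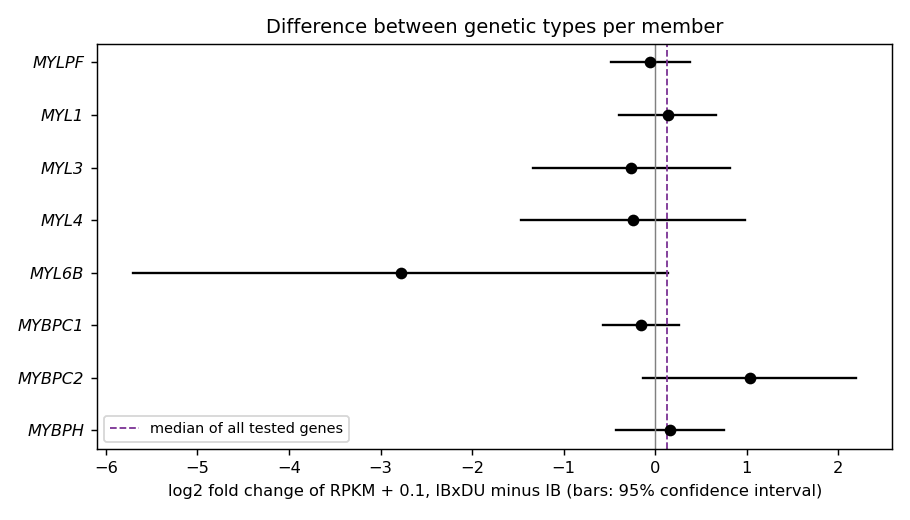
Log2 fold change of each member (x axis, IBxDU minus IB, on log2(RPKM + 0.1)), with bars for the 95% confidence interval from limma and a dashed line at the median of all tested genes, 0.13. Each interval includes 0, and the widest is that of the MYL6B ortholog, -5.70 to 0.14.

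MYBPC1 (ENSSSCG00000000866), the slow form of binding protein C, was among the steadiest members. Its levels were 738, 1084, 862, 989 and 609 RPKM in IBxDU, against 613, 973, 1051, 1065, 863 and 1134 RPKM in IB. Its spread was larger than that of only 29.0% of tested genes, in contrast with the slow light chain MYL3. Means were 857 ± 190 RPKM in IBxDU and 950 ± 189 RPKM in IB, and the log2 fold change was -0.15 (SE 0.19, 95% confidence interval -0.56 to 0.26, limma adjusted p = 0.830, exact permutation p = 0.468).

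The fast form, MYBPC2 (ENSSSCG00000003218), had 848, 422, 708, 391 and 195 RPKM in IBxDU, against 587, 783, 116, 143, 133 and 118 RPKM in IB. IB animals lay at separate levels, with IB-323 and IB-330 above 500 RPKM and the other 4 between 116 and 143 RPKM, below every IBxDU animal. Means were 513 ± 262 RPKM in IBxDU and 313 ± 294 RPKM in IB. The log2 fold change was 1.03 (SE 0.54, 95% confidence interval -0.13 to 2.20), the largest positive one among the members, with an unadjusted p of 0.0782 and an adjusted p of 0.620 in limma and an exact permutation p of 0.165. Of the IBxDU animals, 4 of 5 lay above the IB mean of log2 values. Without IB-330 the fold change was 1.40 with an unadjusted p of 0.0104 in limma, and without IBxDU-402 it was 0.81. The adjusted p was 0.519 or more in each of the 11 fits that left out an animal.

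MYBPC2 made up 53.5, 28.0, 45.1, 28.3 and 24.3% of MYBPC1 plus MYBPC2 in IBxDU, against 48.9, 44.6, 9.91, 11.9, 13.3 and 9.45% in IB. The mean share was 35.8 ± 12.7% in IBxDU and 23.0 ± 18.5% in IB, and the groups overlapped through IB-323 and IB-330. Markers of fat cells were high in some of the animals with high MYBPC2. Of that list 2 of 6 were matched, PLIN1 and CIDEC, and their sum was 89.9, 12.5, 2.72, 3.38 and 27.8 RPKM in IBxDU, against 32.2, 47.7, 1.05, 14.0, 0.342 and 2.05 RPKM in IB. The part of fat cells in the level of MYBPC2 was not tested.

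MYBPH (ENSSSCG00000030681), whose product lies in the same zone of the thick filament, had 817, 511, 1695, 1077 and 1194 RPKM in IBxDU, against 816, 549, 1234, 955, 963 and 884 RPKM in IB. IBxDU held both the highest animal, IBxDU-426, and the lowest, IBxDU-412. The means were 1059 ± 442 RPKM in IBxDU and 900 ± 223 RPKM in IB, and the log2 fold change was 0.17 (SE 0.27, 95% confidence interval -0.42 to 0.76, limma adjusted p = 0.869, exact permutation p = 0.602). It was -0.03 without IBxDU-426 and 0.40 without IBxDU-412. MYBPH supplied 43.0 ± 13.7% of the 3 binding protein transcripts per length in IBxDU and 41.7 ± 9.77% in IB. The difference of 1.24 percentage points turned to -2.96 without IBxDU-429 and to -2.35 without IB-330, and it was negative without IBxDU-426 as well.

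By mean RPKM over the 11 animals the order was MYLPF at 24064, MYL1 at 10482, MYBPH at 972, MYBPC1 at 907, MYL3 at 733, MYBPC2 at 404, the MYL6B ortholog at 24.4 and MYL4 at 1.58. MYLPF exceeded MYL1, MYL1 exceeded MYBPH and MYBPC2 exceeded the MYL6B ortholog in 11 of 11 animals each. The middle of the order was not separated. MYBPH exceeded MYBPC1, MYBPC1 exceeded MYL3 and MYL3 exceeded MYBPC2 in 7 of 11 animals each, and the MYL6B ortholog exceeded MYL4 in 8 of 11.

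The members varied with one another over the animals. Of 28 pairs, 9 had a Pearson correlation of log2(RPKM + 0.1) with an adjusted permutation p under 0.05 (100000 resamples, two-sided, Benjamini-Hochberg over the 28 pairs), 3 of them positive and 6 negative. Without the 2 animals farthest from the median of the first gene of a pair, 4 of these 9 still passed and 5 did not. The 4 were MYL1 with MYLPF, MYL1 with MYL3, MYL1 with MYL4 and MYL3 with MYL4. The positive pairs were MYL1 with MYLPF, MYL3 with MYL4 and MYL1 with MYBPC2. MYL1 and MYLPF had r = 0.92 (permutation p = 7e-05, adjusted 9.8e-04) and rho = 0.95 (permutation p = 2e-05), and r was 0.89 without the 2 animals farthest from the median of MYL1. For MYL3 and MYL4 r was 0.95 (permutation p = 3e-05, adjusted 8.4e-04) and rho 0.89 (permutation p = 0.0005), and r was 0.88 without the 2 farthest animals, on few reads for MYL4. MYL1 and MYBPC2, both fast, had r = 0.75 (permutation p = 0.0136, adjusted 0.0422), rho = 0.68 (permutation p = 0.0255, adjusted 0.0894) and r = 0.73 without the 2 farthest animals, where the adjusted permutation p was 0.101.

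The negative pairs set MYL3 and MYL4 against the fast genes. MYL1 and MYL3 had r = -0.88 (permutation p = 3.3e-04, adjusted 0.00308), rho = -0.93 (permutation p = 1.8e-04) and r = -0.90 without the 2 farthest animals. MYL3 and MYLPF had r = -0.77 (permutation p = 0.00555, adjusted 0.0259), rho = -0.93 (permutation p = 1.6e-04) and r = -0.72 without them (adjusted permutation p = 0.101). MYL1 with MYL4 gave r = -0.84 (permutation p = 7e-04, adjusted 0.0049), rho = -0.85 (permutation p = 0.00136) and r = -0.84, and MYL4 with MYLPF gave r = -0.78 (permutation p = 0.00553, adjusted 0.0259), rho = -0.82 (permutation p = 0.00325) and r = -0.70 (adjusted permutation p = 0.116). The relations with MYBPC2 rested in part on IB-330 and IBxDU-402. MYL3 with MYBPC2 gave r = -0.75 (permutation p = 0.00874, adjusted 0.0306), rho = -0.75 (permutation p = 0.0112) and r = -0.57 without these animals (adjusted permutation p = 0.230). MYL4 with MYBPC2 gave r = -0.74 (permutation p = 0.00721, adjusted 0.0288), rho = -0.63 (permutation p = 0.0438, adjusted 0.123) and r = -0.58 (adjusted permutation p = 0.230).

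On deviations from the genetic type means, r was -0.87 for MYL1 and MYL3, 0.95 for MYL1 and MYLPF and 0.95 for MYL3 and MYL4. Among the 6 IB animals alone r was -0.90, 0.97 and 0.99 for these pairs, and the 5 IBxDU animals were too few for a correlation of their own. By Pearson r the negative relations depended on the scaling between animals. With median-of-ratios scaling only MYL3 with MYL4 (r = 0.95) and MYL1 with MYLPF (r = 0.93) passed by r. MYL1 with MYL3 had r = -0.64 (permutation p = 0.0350, adjusted 0.140) and MYL3 with MYLPF r = -0.42 (adjusted permutation p = 0.444). By rank, MYL1 with MYL4 was the only negative pair that still passed (rho = -0.88, adjusted permutation p = 0.00933). MYL1 with MYL3 had rho = -0.75 (adjusted permutation p = 0.0677) and MYL3 with MYLPF rho = -0.43 (adjusted permutation p = 0.416).

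No pair that held MYBPC1, MYBPH or the MYL6B ortholog passed. MYBPC1 had r = 0.21 with MYL3 (adjusted permutation p = 0.753), r = -0.34 with MYBPC2 (adjusted permutation p = 0.624) and r = -0.09 with MYL1 (adjusted permutation p = 0.857). The r of the MYL6B ortholog with the other members lay between -0.28 (MYBPC2) and 0.28 (MYBPC1), and it changed when animals were left out. Without IB-330 and IBxDU-402 it was 0.72 with MYL3, against 0.14 with all animals (adjusted permutation p = 0.101 without these animals), and 0.64 with MYL4, against 0.10. Without IB-431 and IBxDU-429 it was -0.58 with MYL1, against -0.23, and without IB-503 and IB-504 it was 0.28 with MYBPC2, against -0.28.

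**Figure D3:**
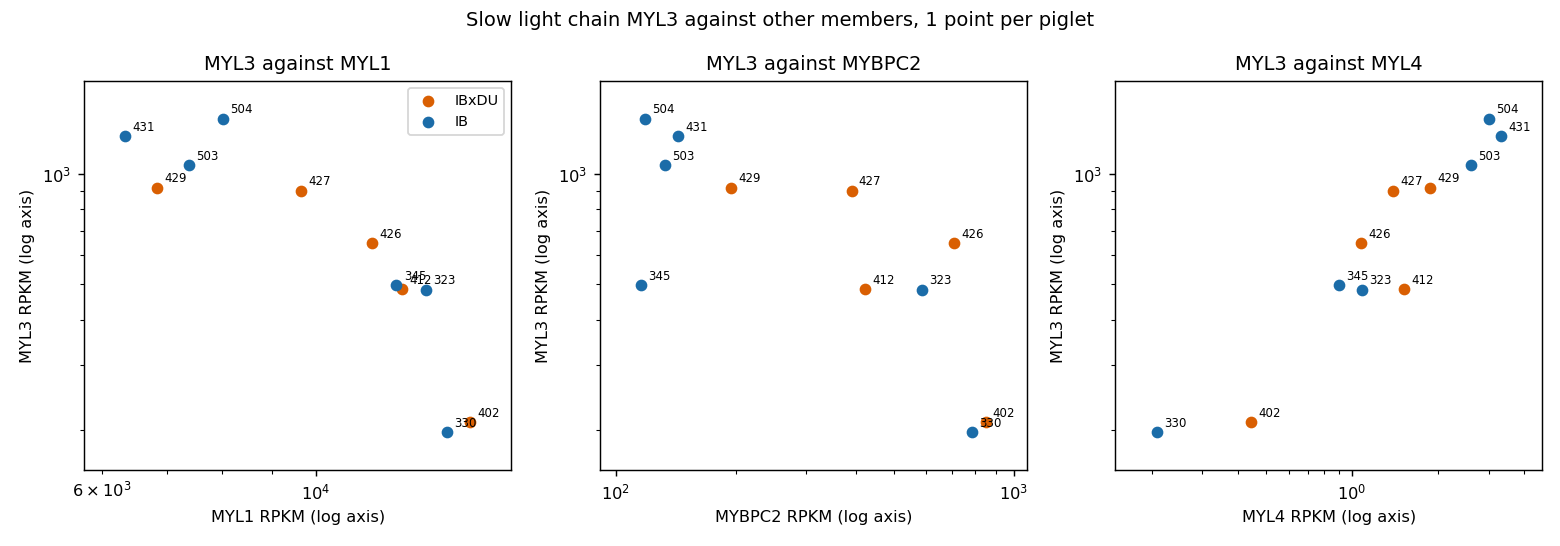
MYL3 RPKM (y axis, log) against RPKM of MYL1, MYBPC2 and MYL4 (x axes, log), 1 point per piglet, IBxDU in orange and IB in blue. MYL3 falls as MYL1 increases (r = -0.88) and climbs with MYL4 (r = 0.95), with animals of both genetic types along each slope.

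**Figure D4:**
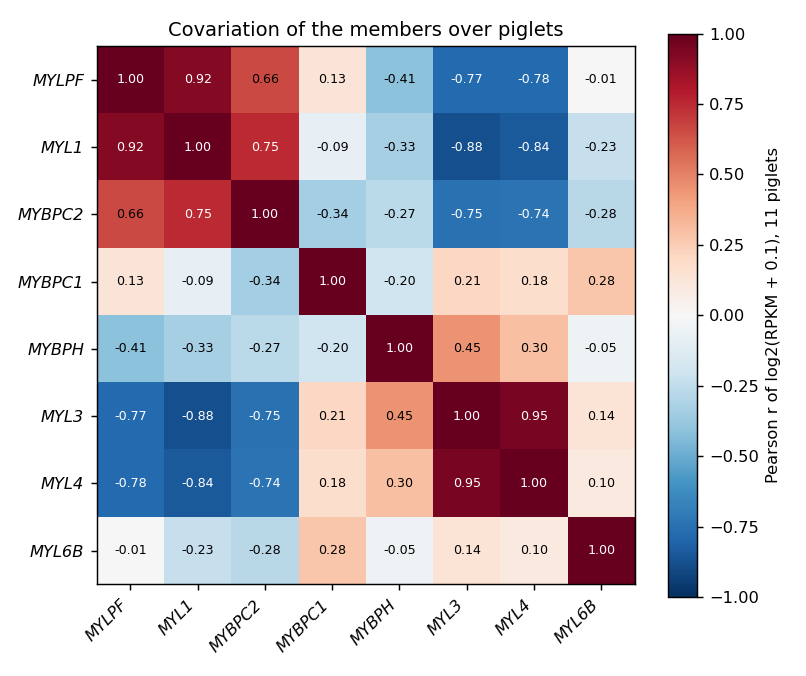
Pearson r of log2(RPKM + 0.1) over 11 piglets for each pair of members, red for positive and blue for negative. MYLPF, MYL1 and MYBPC2 form a block of positive values, MYL3 and MYL4 another (r = 0.95), and the blocks are negatively related to each other.

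The genes most like 3 of the members over the 11 animals were sought among all 11867 other tested genes, as a description with no test. For MYL3 the highest r was that of TNNC1, the troponin C of slow and cardiac muscle, with r = 0.94 and rho = 0.88. TNNC1 had 263, 1001, 876, 1314 and 982 RPKM in IBxDU, against 868, 189, 990, 1924, 1533 and 1582 RPKM in IB, and IB-330 and IBxDU-402 were again the lowest. INTS12, a subunit of the Integrator complex (r = 0.94), MYL10, a regulatory light chain (r = 0.93), CPSF7, an RNA 3′ end processing factor (r = 0.93), and FAM167B (r = 0.93) came next.

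MYL10 (ENSSSCG00000007680) was low, at 0.936, 4.37, 4.08, 6.63 and 9.27 RPKM in IBxDU, against 3.65, 1.38, 8.04, 10.5, 17.6 and 21.0 RPKM in IB. For MYBPC2 the nearest genes were ENSSSCG00000030087 (r = 0.95), HR, a nuclear corepressor (r = 0.95), ENSSSCG00000025136 (r = 0.94), EXTL1, a glycosyltransferase (r = 0.91), and ASNS, asparagine synthetase (r = 0.91). ASNS had 141, 32.9, 54.8, 14.1 and 17.9 RPKM in IBxDU, against 62.2, 29.6, 2.12, 8.01, 7.16 and 4.55 RPKM in IB. The 3 highest ASNS values were those of IBxDU-402, IB-323 and IBxDU-426, all of them animals with over 500 RPKM of MYBPC2. IB-330, also above 500 RPKM of MYBPC2, had 29.6 RPKM of ASNS, below the 32.9 RPKM of IBxDU-412. ASNS had been picked for its r with MYBPC2 over these same animals.

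For the MYL6B ortholog the most similar gene was SMARCC2, a subunit of the SWI/SNF chromatin remodelling complex, with r = 0.90, rho = 0.75 and r = 0.84 without the 2 farthest animals. SMARCC2 had 8.54, 2.73, 2.38, 2.70 and 2.59 RPKM in IBxDU, against 2.39, 9.50, 2.17, 4.73, 9.78 and 11.8 RPKM in IB. Its 4 highest animals, IB-504, IB-503, IB-330 and IBxDU-402, were also the 4 highest for the MYL6B ortholog. The next genes were GAREM2, an adaptor of growth factor signalling (r = 0.83), SH3KBP1, an adaptor in receptor endocytosis (r = 0.83), ENSSSCG00000025283 (r = 0.83) and ENSSSCG00000028235 (r = 0.82). ENSSSCG00000028235, like the MYL6B ortholog, was high in a few animals of both genetic types, at 72.6, 1.52, 1.53, 4.52 and 2.15 RPKM in IBxDU and 1.64, 104, 2.21, 1.05, 58.1 and 52.6 RPKM in IB.

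SMARCC2 is also a neighbour of MYL6B. In the RefSeq gene order of assembly Sscrofa11.1, which is not the build of the files and is used only for order, MYL6B is followed by MYL6 and then by SMARCC2. Of the 20 entries within 10 positions on either side, 10 were matched and 8 were tested. SMARCC2 alone among these 8 had r above 0 with the MYL6B ortholog over all animals. The other 7 lay between -0.73 (COQ10A) and -0.04 (ESYT1). Without IB-503 and IB-504, r turned to 0.41 for SUOX, 0.32 for CNPY2 and 0.29 for ESYT1. RNF41, matched but too low to be tested, had r = 0.44 over all animals and -0.28 without these 2. Over all tested genes 0.0758% had r above 0.8. SMARCC2 had been picked for having the highest r, so this share is no measure of chance for it. ESYT1, which precedes the MYL6B ortholog by 2 positions, was at 8.56, 5.80, 2.81, 3.57 and 4.94 RPKM in IBxDU, against 4.52, 6.42, 3.21, 3.34, 3.12 and 4.05 RPKM in IB. This window was chosen after the values of SMARCC2 were seen.

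**Figure D5:**
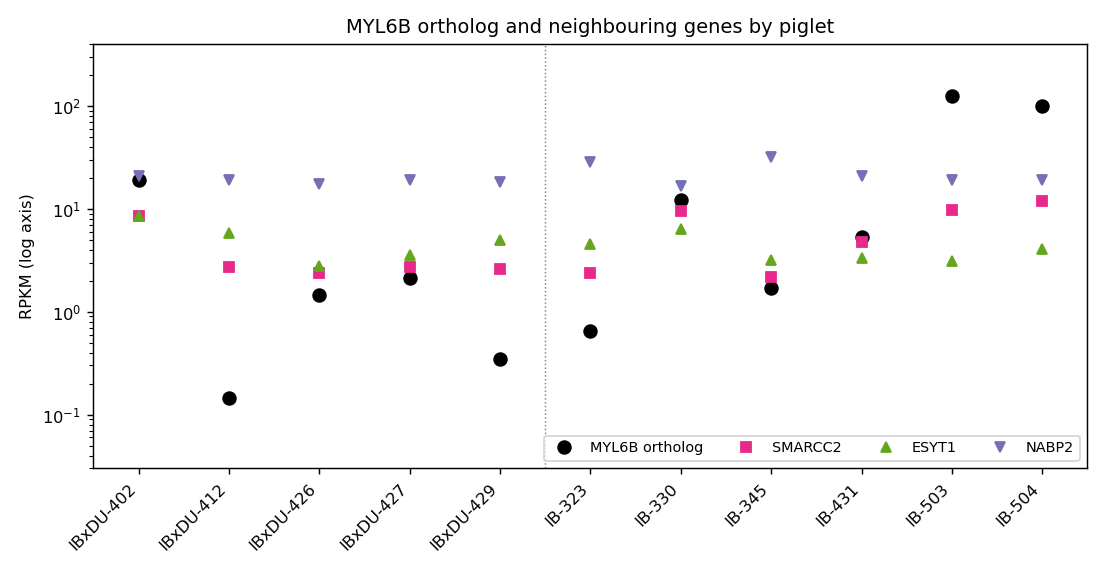
RPKM (y axis, log) of the MYL6B ortholog and of 3 neighbours in gene order, SMARCC2, ESYT1 and NABP2, in each piglet, IBxDU left and IB right of the dotted line. SMARCC2 (2.17 to 11.8 RPKM) is high in the same 4 animals as the MYL6B ortholog. ESYT1 (2.81 to 8.56 RPKM) is highest in IBxDU-402 and IB-330, which are among these 4, but not in IB-503 and IB-504. NABP2 (16.8 to 31.6 RPKM) is highest in IB-345 and IB-323, which are not among them.

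Genes related to the members were counted from lists chosen by role. No gene of the 4 lists passed the adjusted threshold in limma, where 0.0168% of all tested genes did, or with voom. Of 8 further light chain and binding protein symbols, 5 were in the table and 2 were tested. Their median log2 fold change was -0.37, beside 0.13 for all tested genes. MYL12A, a regulatory chain of non-muscle myosin, had 46.3 ± 14.4 RPKM in IBxDU and 41.6 ± 8.56 RPKM in IB (log2 fold change 0.12), and MYL10 had 5.06 ± 3.11 RPKM in IBxDU and 10.3 ± 7.70 RPKM in IB (log2 fold change -0.86, unadjusted p = 0.225 in limma). MYBPHL and MYBPC3, the atrial and the cardiac binding proteins, stayed under 1 RPKM in every animal.

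Kinases and phosphatase subunits that act on regulatory light chains, with the calmodulins, were in the table for 10 of 13 symbols and all of these were tested. They were higher in IBxDU for 7 and lower for 3, where 66.9% of all tested genes were higher. The median was 0.18, beside 0.13 for all tested genes. In limma 0 had an unadjusted p under 0.05, where 8.03% of all tested genes did. MYLK2, the skeletal muscle light chain kinase, had 121 ± 30.5 RPKM in IBxDU and 125 ± 25.8 RPKM in IB (log2 fold change -0.06, SE 0.22). PPP1CB, the catalytic subunit of the light chain phosphatase, had 180 ± 48.4 RPKM in IBxDU and 177 ± 19.6 RPKM in IB, and CALM2, which encodes calmodulin, 173 ± 21.6 RPKM in IBxDU and 164 ± 41.2 RPKM in IB.

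Of 10 heavy chain symbols 6 were in the table and 5 were tested, with a median of -0.03, beside 0.13 for all tested genes. In limma 0 of them had an unadjusted p under 0.05, where 8.03% of all tested genes did. MYH8, the perinatal heavy chain, had 5087 ± 2076 RPKM in IBxDU and 4467 ± 1700 RPKM in IB. MYH13, the superfast chain of eye muscles, had 107 ± 49.1 RPKM in IBxDU and 92.5 ± 45.2 RPKM in IB, and skeletal heavy chains are near-identical neighbours whose reads may have been exchanged. For a list of thick filament, M-band and other sarcomere-related genes 9 of 14 symbols were in the table and tested. TCAP and MYOT of this list belong to other parts of the sarcomere. Of these 9 genes, 2 were higher and 7 lower in IBxDU, where 66.9% of all tested genes were higher. Their median was -0.21, beside 0.13 for all tested genes. TRIM63, the ubiquitin ligase MuRF1 of the M-band, had 47.0 ± 15.8 RPKM in IBxDU and 101 ± 33.6 RPKM in IB (log2 fold change -1.10, unadjusted p = 0.00104, adjusted p = 0.405 in limma). The study called this gene on these animals, by its own test and a threshold on the unadjusted p. TCAP, the cap of titin, had 2631 ± 743 RPKM in IBxDU and 3040 ± 926 RPKM in IB, MYOT 448 ± 103 RPKM in IBxDU and 515 ± 99.7 RPKM in IB, and MYOM2, myomesin 2, 314 ± 68.7 RPKM in IBxDU and 342 ± 84.1 RPKM in IB.

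Markers of cells that also use myosin light chains or that could lie in the sample were set beside these values. Smooth muscle markers (5 of 8 matched) summed to between 256 and 491 RPKM in IBxDU and between 218 and 561 RPKM in IB, with CNN1, calponin 1, at an unadjusted p of 0.0115 in limma. Non-muscle actomyosin genes (7 of 9 matched) summed to between 895 and 1672 RPKM in IBxDU and between 676 and 1160 RPKM in IB, and were higher in IBxDU for 7 of 7, where 66.9% of all tested genes were. Among them the non-muscle heavy chains MYH9 (log2 fold change 0.56, unadjusted p = 0.00845) and MYH10 (1.32, unadjusted p = 0.00339) had an unadjusted p under 0.05 in limma, where 6% of all genes were higher at that level. MYH10 was also called by the study on these animals, so its difference here is not an independent result. Connective tissue markers were between 636 and 5685 RPKM in IBxDU and between 974 and 2633 RPKM in IB, with PDGFRA at 0 in every animal, and IBxDU-402 was the highest. Epithelium markers (3 of 6 matched) were low, and their sum did not overlap, between 2.43 and 5.79 RPKM in IBxDU and between 6.46 and 9.99 RPKM in IB, where 1.04% of all tested genes did not overlap. CLDN7, a tight junction protein with 2 identifiers in the table, had log2 fold changes of -1.29 and -1.12 (unadjusted p = 6.9e-04 and 0.00506 in limma), and KRT10, an epidermal keratin, had -0.84 (unadjusted p = 0.00667). KRT10 and 1 of the CLDN7 identifiers did not overlap between the groups, where 1.04% of all tested genes did not. The other CLDN7 identifier and EPCAM did overlap. The smallest adjusted p of these genes was 0.405. The part of these cells in the levels of the members was not tested.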

How the data were processed

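RNA of Biceps femoris from 12 labelled piglets was sequenced as paired reads on an Illumina HiSeq2000. The authors mapped the reads to Sscrofa10.2 with the CLC Bio Genomic Workbench. They deposited RPKM values, which the authors scaled by exon length and mapped reads, for 11 of the animals. The p-values and fold changes of the authors' own comparison in the same table were not used. Gene names came from a gene table for 11450 identifiers and from the study's gene list for 49. MYLPF is listed there under its current symbol, MYL11.

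Because the table holds RPKM, log2(RPKM + 0.1) was tested with limma 3.58.1 (R 4.3.3, trended empirical Bayes, genetic type only) in 11875 genes with a group mean above 0.5 RPKM, with Benjamini-Hochberg adjustment over all of them. The limma step alone was tried on simulated data. Exact permutation tests used all 462 relabelings of the animals (smallest possible p 0.00433). Correlations used 100000 resamples (Python 3.11.15, scipy 1.17.1, numpy 2.4.6, pandas 2.3.3). All 16953 genes above 0 gave whole reads within 0.02 reads (100%). Genes above 0 in very few animals do so by construction. A factor shared by all reads of a gene would not be seen, so this share does not test whether the recovered reads are the original ones. Reads behind a member ranged from 2 for the MYL6B ortholog to 585273 for MYLPF.

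Every member is named, and from each related and marker list the genes with an unadjusted p under 0.05. The 3 most abundant genes are named for the 4 related lists. For MYL3, MYBPC2 and the MYL6B ortholog the 5 genes with the highest r are named. Members and lists were chosen with earlier results of these data known. Alternatives tried were 2 other scalings, a pseudocount of 1, all genes above 0, limma without a trend, leaving out each animal and, chosen after seeing the data, voom on the recovered reads.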

Additional observations from a re-analysis of the deposited data

Results flagged for a closer look

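Among 28 groups of animals examined for single values far from the rest, 2 were picked out, and chance alone picks out about 1 in 20. The rule was applied to RPKM and to shares, and was not run on the log2 values used in the other tests. The MYLPF level of IBxDU-429, 15109 RPKM, was far below the other 4 IBxDU animals, which lay between 24234 and 27072 RPKM. Its gap to the nearest animal was 0.763 of the range of the group. The MYL6B ortholog in IBxDU-402, 19.0 RPKM, was far above the other 4 IBxDU animals, which lay between 0.146 and 2.13 RPKM, with a gap of 0.895 of the range.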

How the results depend on the processing

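With a pseudocount of 1, no filter, upper quartile or median-of-ratios scaling, limma without a trend, and voom, each of the 8 members kept its direction and none passed the adjusted threshold. Over all tested genes 2 passed, but 1 with upper quartile scaling, median-of-ratios scaling, limma without a trend or voom, and 1 to 2 when single animals were left out. Leaving out animals moved the log2 fold change of MYL3 between -0.61 and 0.092, that of MYL4 between -0.69 and 0.059 (0.0006 without IB-431), that of MYLPF between -0.14 and 0.10 (0.038 without IB-330) and that of MYBPH between -0.032 and 0.40, each through 0. By Pearson r, 9 of 28 pairs of members were correlated as reported, 10 on deviations from the genetic type means, 4 without the 2 farthest animals (each among the 9) and 2 with median-of-ratios scaling. The cause was not tested. Differences in shares within an animal moved by less than the SD between animals, but some turned. When single animals were left out, the difference for MYBPH lay between -2.96 and 5.64 percentage points, that for all 8 members between -0.054 and 0.64 and that for MYL3 between -4.15 and -1.11. Each symbol had 1 identifier, so taking the most abundant one changed nothing and was not run. No paired analysis was possible because animal numbers are not shared between the genetic types. MYL4 rested on 3 to 52 reads, and the MYL6B ortholog on as few as 2.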
